A study of Mus musculus with 8 samples.

Results

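Very deeply covered cytosines were examined on 2 lists made from Tdg -/- mouse embryonic stem cells of strain C57BL/6-ICR, 1 list for each of the oxidised bases 5-formylcytosine (5fC) and 5-carboxylcytosine (5caC). They were chosen by read depth: a cytosine was taken when its reads in the protected and bisulfite-only libraries of its mark summed to more than 100, and when it was listed for that mark only. This left 374 of the 12019 entries on the lists, namely 297 of 7213 for 5fC and 77 of 4806 for 5caC. Another 20 5fC and 17 5caC entries of that depth were left out because the same cytosine was listed for both marks. Depth and listing chose these cytosines, so depths, levels and p-values are given as a description.

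The study immunoprecipitated sonicated DNA with antiserum to 5fC or 5caC and converted it with bisulfite, either directly or after a chemical protection of the captured base. The 4 groups used here were Tdg -/- cells with 5fC capture and bisulfite only, the same with O-ethylhydroxylamine protection, Tdg -/- cells with 5caC capture and bisulfite only, and the same with carbodiimide-coupled amine protection. Each group had 1 library, so no spread between libraries exists and every test compares the reads of 2 libraries. The Tdg fl/fl libraries of the series were not analysed here. The sources used here do not say whether the knockout cells were 1 clone.

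TET enzymes oxidise 5-methylcytosine (5mC) to 5-hydroxymethylcytosine (5hmC), 5fC and 5caC, and the glycosylase TDG removes 5fC and 5caC from DNA. Without TDG both bases accumulate. Bisulfite alone leaves 5mC and 5hmC as C (unconverted), whereas unmodified cytosine and both oxidised marks appear as T. Protection shields the captured mark from conversion. The gain in unconverted reads after protection, in percentage points, measures the mark at that cytosine in captured DNA and is called the rise below. The bisulfite-only percentage holds 5mC, 5hmC and any cytosine that bisulfite failed to convert. Ribosomal RNA genes and the satellite DNA around mouse centromeres exist in many near-identical copies, of which a genome assembly holds only a few, so that reads of many copies can be placed on 1 position. Neither the copy number behind a position nor its sequence was determined here, since no genome or annotation of the build mm9 was used. The name repeat-like was therefore not tested, and the cytosines are called deep below.

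Deep cytosines were a small part of the lists and a large part of their reads. They made up 4.12% of the 5fC list and 34.6% of its reads, and 1.60% of the 5caC list and 36.9% of its reads. A large share of reads follows from a choice by depth. For 5caC it rested mostly on 1 cytosine, 98507248 on chromosome 2, with 65929 of the 106443 reads at deep 5caC cytosines. Median depth per deep 5fC cytosine was 97 protected and 78 bisulfite-only reads, with a highest value of 7198 and 6347. For 5caC the medians were 92 and 54, and the highest values 27944 and 37985. The other entries had medians of 19 and 14 reads for 5fC, and 20 and 13 for 5caC. Reads without molecular identifiers need not be independent molecules, so intervals of single cytosines cover counting error only.

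The deep 5fC cytosines were mostly unconverted before protection. Their median went from 72.2% unconverted reads with bisulfite alone (quartiles 56.3 and 82.7, range 6.25 to 96.4) to 87.0% with protection (quartiles 76.0 and 93.8, range 22.8 to 100). With bisulfite alone 243 of 297 (81.8%) were at 50% unconverted or above, against 37.9% of the other 5fC entries, and 4 were under 20%. A bisulfite-only library free of C reads was found at 0 of 297 (exact 95% upper bound 1.23%), against 307 of the 6916 other entries. Such a zero is less likely at greater depth. Deep 5fC cytosines had at least 31 bisulfite-only reads (median 78), and the other entries had a median of 14. The bound treats cytosines as independent, although close neighbours can share reads. The median rise with protection was 13.5 percentage points, with quartiles of 9.60 and 19.8. Above 50 reads it was 26.3 points.

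The deep 5caC cytosines were spread over the scale, with many low and many high values. With bisulfite alone 31 of 77 (40.3%) were under 20% unconverted, 33 (42.9%) were at 50% or above and 19 were at 80% or above. Among the other 5caC entries 66.9% were under 20% and 9.66% at 50% or above. The median was 29.7% with bisulfite alone (quartiles 8.51 and 79.5) and 54.0% with protection (quartiles 40.2 and 90.6). Their median rise was 16.2 percentage points, with quartiles of 9.14 and 24.2. Both medians moved with the choice of cytosines. Above 200 reads the bisulfite-only median was 79.4% and the rise 8.61 points, and above 50 reads they were 12.5% and 31.0 points. Without the chromosome 17 locus described below, the bisulfite-only median was 45.4%, and with 1 cytosine per run of close neighbours it was 49.0%.

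**Figure D1:**
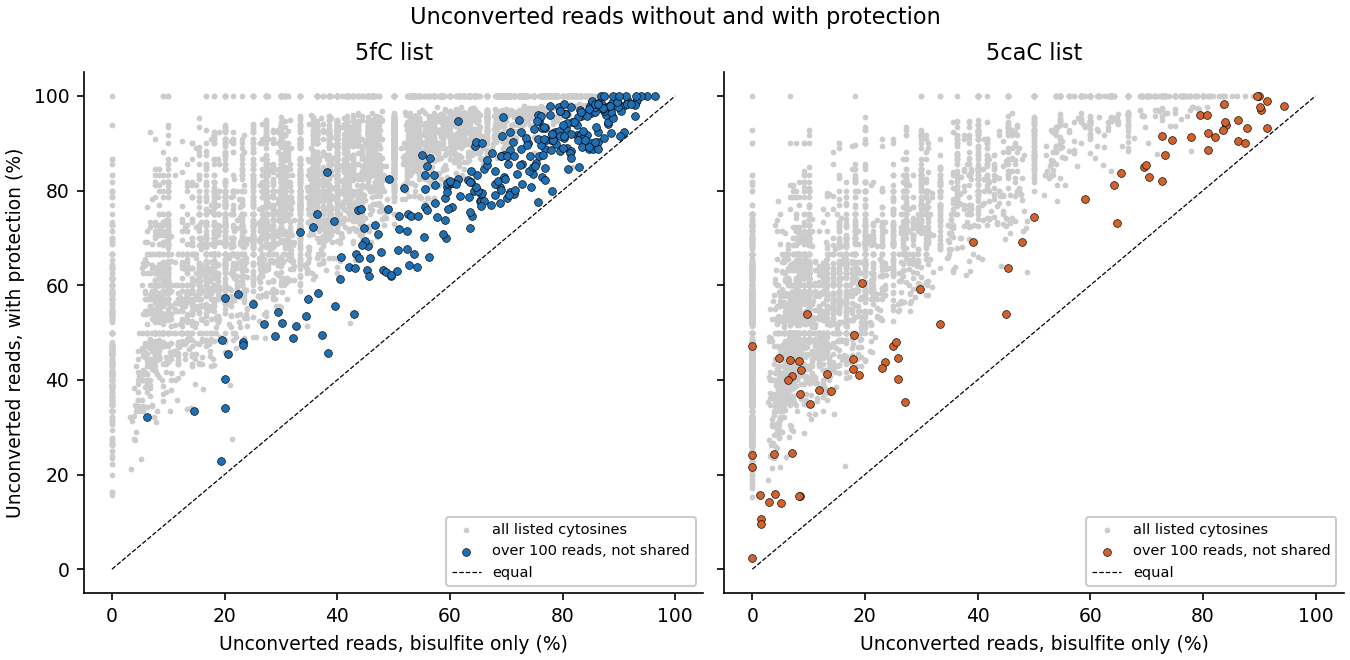
Unconverted reads with bisulfite alone (x axis, %) and with protection (y axis, %) for 5fC (left) and 5caC (right). Grey points are all listed cytosines, coloured points the 297 deep 5fC and 77 deep 5caC cytosines, and the dashed line marks equal values. Deep 5fC points gather at the upper right, while deep 5caC points spread from low to high values.

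The listing rule, a p below 0.05 with a higher protected value, bounded which counted shares could appear at a given depth. At 19 protected and 14 bisulfite-only reads, the median depth of the 5fC list, a cytosine with every protected read unconverted could be listed with at most 10 of 14 bisulfite-only C reads (71.4%). Of the deep 5fC cytosines, 151 of 297 (50.8%) were above that value. For 5caC, at 20 and 13 reads, the limit was 9 of 13 (69.2%), and 28 of 77 deep cytosines (36.4%) were above it. At the median depth no entry with such a counted share could have been listed. The limit is one on counts at that depth and not on the level of a cytosine, whose count varies by sampling. Among the other entries, 125 of 6916 for 5fC and 27 of 4729 for 5caC were at 80% or above with bisulfite alone.

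Depth also set how small a rise could be listed. From cytosines with 101 to 150 reads to those above 1000, the median rise fell from 19.8 to 3.60 percentage points for 5fC and from 22.6 to 3.37 for 5caC. The lowest rise that the listing rule allowed, given each table's margins, fell in the same classes from a median of 17.8 to 3.19 for 5fC and from 19.2 to 2.51 for 5caC. The classes above 1000 reads held 20 5fC and only 4 5caC cytosines. Those 4 all lay in the chromosome 2 locus described below, so depth and locus cannot be told apart there. The 20 5fC cytosines lay on 8 chromosomes. They included all 5 of the chromosome 2 locus and most of the 13 of the chromosome 9 locus described below, so depth and locus are partly mixed for 5fC too. Exactly at this lowest value stood 136 of the 297 5fC cytosines (45.8%) and 36 of the 77 5caC cytosines (46.8%).

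**Figure D2:**
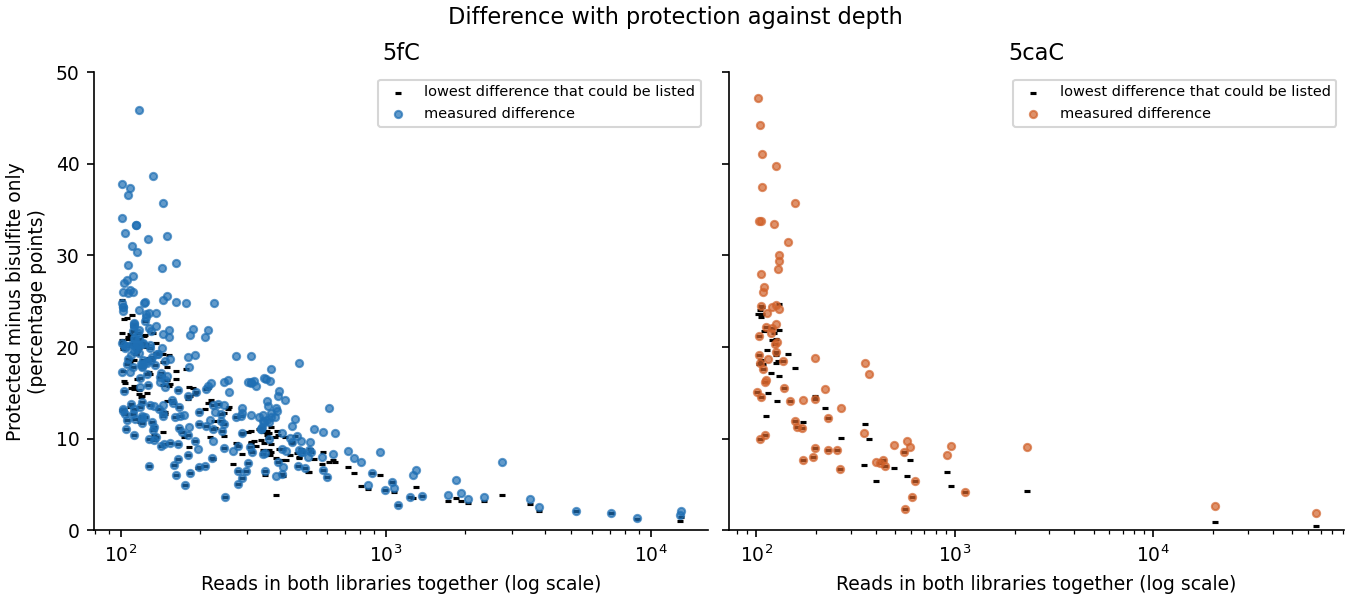
Rise of unconverted reads with protection (y axis, percentage points) against reads in both libraries together (x axis, log scale) for 5fC and 5caC. Points are deep cytosines and black dashes the lowest rise that could be listed at the same cytosine. Above 1000 reads the rises were below 10 points, some at the dash and others above it, such as 1.88 against 0.423 points at the deepest 5caC cytosine.

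An unadjusted p below 0.01 by Fisher's exact test, two-sided, was found at 116 of 297 deep 5fC cytosines (39.1%), against 33.8% of the whole 5fC list. For 5caC it was 33 of 77 (42.9%), against 36.1% of the list. After a Bonferroni adjustment over each whole list, 2 deep 5fC and 6 deep 5caC cytosines were below 0.05, where 0.291% of the 5fC and 1.04% of the 5caC list were. The same contrast put these cytosines on the lists, so nothing is read from these shares.

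At the read threshold the rises just inside and just outside overlapped. The shallowest deep 5fC cytosines were 5 with 101 reads each and rises of 17.3 to 37.9 points, and the 5 with 100 reads, just outside, had rises of 15.4 to 26.7. For 5caC the 5 cytosines with 101 to 103 reads had rises of 15.1 to 47.2 points, and the 4 with 99 or 100 reads had rises of 18.1 to 37.5.

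Position was not part of the choice. Joining deep cytosines within 10000 bp of each other gave 173 loci, of which 50 held 2 or more deep cytosines and 123 held 1. Loci of 2 or more held 65.7% of the deep 5fC cytosines (exact 95% interval 60.0 to 71.0) and 72.7% of the deep 5caC cytosines (61.4 to 82.3). Joined in the same way, the far more numerous other entries had 60.8% and 63.5% in such loci, so these shares alone do not set deep cytosines apart. In a count of single neighbours, a second cytosine of the same list lay within 200 bp of 63.6% of deep 5fC and 72.7% of deep 5caC cytosines, against 37.1% and 35.2% of the other entries, and within 10000 bp of 76.4% and 94.8%, against 51.6% and 48.5%. The 5 largest loci held 133 deep cytosines (35.6%) and 70.0% of the reads. Of the 50 loci, 30 had 5fC cytosines only, 7 had 5caC cytosines only and 13 had both. Cytosines closer than a read length can share reads and are not independent. Counting runs on 1 strand with gaps of at most 50 bp once, the 297 5fC cytosines came down to 220 and the 77 5caC cytosines to 62.

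All positions are given in mm9, the build in the submitters' processing notes. The largest locus lay on chromosome 17, from 39980057 to 39985671, and held 61 deep cytosines over 5615 bp, 53 of 5fC and 8 of 5caC. All 8 5caC cytosines lay in the first 1365 bp, up to position 39981421. The 5fC cytosines began at 39980794 and reached the end of the locus. A further 13 5fC entries of 100 reads or fewer lay inside, and no shallower 5caC entry or shared cytosine. The reference table at hand names an 18S ribosomal RNA pseudogene, Rn18s-rs5, on chromosome 17, but it is of another build (GRCm38.p6), so whether the locus overlaps it was not determined.

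The marks of this locus were far apart on the bisulfite-only scale. The 53 5fC cytosines had 45.3 to 82.5% unconverted reads with bisulfite alone (median 69.1%) and 61.9 to 94.8% with protection (median 82.5%). The 8 5caC cytosines had 1.45 to 8.38% with bisulfite alone (median 3.45%) and 9.52 to 15.9% with protection (median 14.8%). The ranges of the 2 marks did not overlap in either treatment. Inside the stretch that held the 5caC cytosines were 5 of the 5fC cytosines, at 45.8 to 76.3% with bisulfite alone.

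Neighbouring cytosines showed this within a few bases. On the minus strand, the 5caC cytosine at 39981206 was unconverted in 4 of 78 bisulfite-only reads (5.13%, exact 95% interval 1.41 to 12.6) and 21 of 151 protected ones (13.9%, 8.82 to 20.5). The 5fC cytosine at 39981198, 8 bp away on the same strand, was unconverted in 115 of 212 bisulfite-only reads (54.2%, 47.3 to 61.1) and 195 of 305 protected ones (63.9%, 58.3 to 69.3). Each value comes from the library of its own mark, and a different cytosine was listed in each, so capture, library and cytosine cannot be told apart. At all 4 5caC cytosines of the locus with a deep 5fC cytosine within 200 bp, the nearest 5fC cytosine was higher with bisulfite alone, by 42.9 to 63.9 points at distances of 8 to 41 bp.

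**Figure D3:**
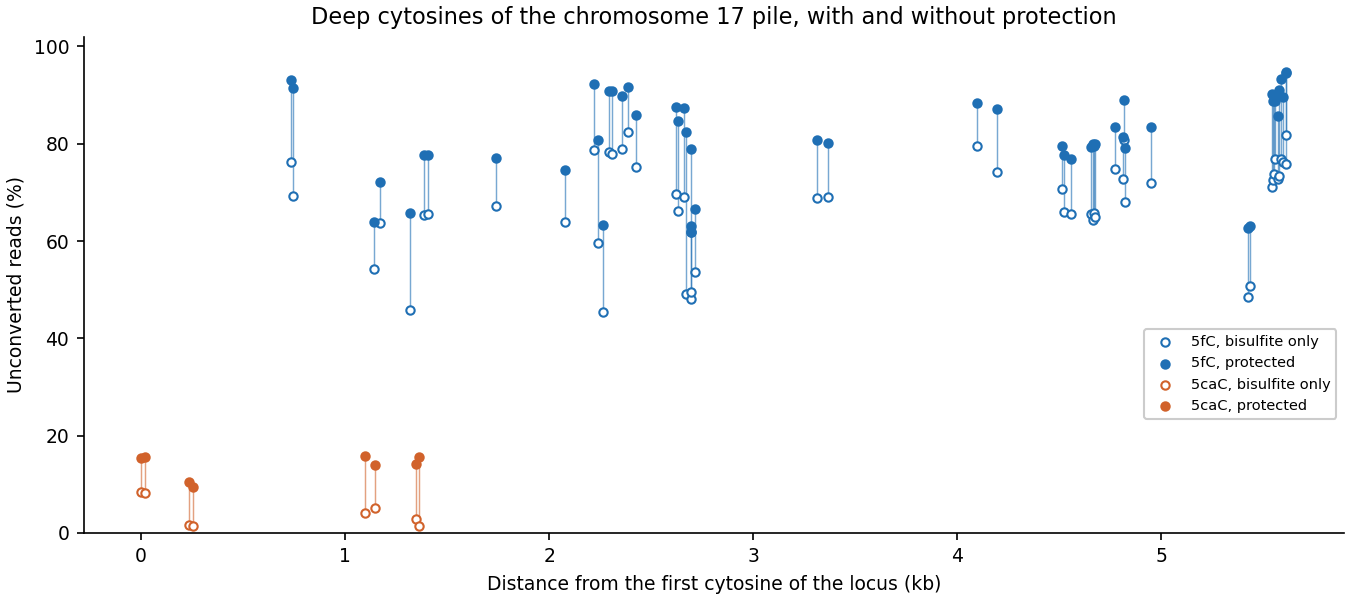
Unconverted reads (y axis, %) at the 61 deep cytosines of the chromosome 17 locus against distance from its first cytosine (x axis, kb). Open points are bisulfite-only values, filled points protected values, and lines join the values of 1 cytosine, with 5fC in blue and 5caC in orange. The 8 5caC cytosines lie below 16% in the first 1.4 kb, while all 53 5fC cytosines lie above 45%.

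Of the 8 5caC cytosines on chromosome 17, 7 stood at the lowest rise that could be listed, as did 20 of the 53 5fC cytosines. The 5fC rise ranged from 8.31 to 33.3 points with a median of 12.9, and the 5caC rise from 7.04 to 14.2 with a median of 8.88. The highest was at 39982730, minus strand, where 28 of 57 bisulfite-only reads (49.1%) were unconverted and 47 of 57 (82.5%) after protection, an unadjusted p of 0.000318 by Fisher's exact test. The lowest p of the locus was at its last cytosine, 39985671, plus strand, with 164 of 173 (94.8%) and 75 of 99 (75.8%) C reads and an unadjusted Fisher's exact p of 8.98e-06. That cytosine ends a run of 10 5fC cytosines on the plus strand within 73 bp, from 39985599. In this run bisulfite-only values were 71.2 to 81.7%, protected values 85.7 to 94.8% and rises 11.9 to 19.1 points. A second run of 8 on the plus strand, from 39982275 to 39982484, was more varied, with 45.3 to 82.5% before protection and rises of 9.22 to 21.3 points. Of the 53 5fC cytosines 37 were on the plus strand, as were 4 of the 8 5caC cytosines.

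Chromosome 2, from 98502614 to 98507468, held the deepest 5caC cytosines and 3 of the 5 deepest 5fC cytosines. Its 12 deep cytosines, 5 of 5fC and 7 of 5caC over 4855 bp, carried 49.9% of all reads at deep cytosines and 85.9% of those of 5caC. The single cytosine at 98507248, plus strand, was unconverted in 26044 of 27944 protected 5caC reads (93.2%) and in 34687 of 37985 bisulfite-only reads (91.3%). Its rise of 1.88 points had an unadjusted Fisher's exact p of 4.9e-19, the lowest of all deep cytosines. At 98507353, minus strand, 6794 of 7771 bisulfite-only reads (87.4%) were unconverted, and 11372 of 12630 (90.0%) after protection, a rise of 2.61 points with an unadjusted Fisher's exact p of 8.8e-09. The depth makes such small rises detectable as a difference between 2 libraries, and without replicate libraries their size cannot be set against a spread between libraries.

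Both marks were high on chromosome 2 before protection, unlike on chromosome 17. The 5fC cytosines had 82.8 to 90.8% unconverted reads with bisulfite alone and rises of 1.34 to 4.58 points. The deepest of them, 98502614 on the minus strand, went from 5766 of 6347 (90.8%) to 6014 of 6504 (92.5%). The 5caC cytosines had 77.9 to 91.3% with bisulfite alone, apart from 98502759 on the minus strand. That one was unconverted in 610 of 1357 bisulfite-only reads (45.0%, exact 95% interval 42.3 to 47.6) and, after protection, in 517 of 957 (54.0%, 50.8 to 57.2). A 5fC cytosine 45 bp away on the same strand, 98502714, had 82.8% with bisulfite alone. One pair of neighbouring positions was listed for 5fC on 1 strand and for 5caC on the other. There 98507467, plus strand, had a 5fC rise of 2.57 points and 98507468, minus strand, a 5caC rise of 9.19 points, with bisulfite-only values of 86.2% and 82.2%. No shared or shallower listed cytosine lay in this locus.

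The locus on chromosome 9 began at the first listed position of that chromosome, 3000382, and ran to 3038153. It held 13 5fC and 4 5caC deep cytosines, spread over 37772 bp. Like chromosome 2 it was high for both marks before protection, with 76.4 to 93.0% for 5fC and 80.8 to 90.2% for 5caC. Rises were 3.40 to 12.4 points (median 5.51) for 5fC and 6.70 to 10.6 (median 8.50) for 5caC. The lowest and highest 5fC bisulfite-only values belonged to neighbours on the minus strand. Position 3038153 had 478 of 626 C reads (76.4%) and 3038023 had 132 of 142 (93.0%), a pair chosen after the values were seen.

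On chromosome 11 the second largest locus ran from 3083572 to 3095089, with 19 5fC and 6 5caC deep cytosines and 1 shared cytosine. All 6 5caC cytosines lay within 553 bp, from 3093035 to 3093587, and 14 of the 5fC cytosines lay in the same stretch. Bisulfite-only medians were 80.6% for 5fC and 78.4% for 5caC, and median rises 10.1 and 9.44 points. The 5fC cytosine at 3093067, minus strand, stood apart unconverted in 14 of 68 bisulfite-only reads (20.6%, exact 95% interval 11.7 to 32.1) and, after protection, in 49 of 108 (45.4%, 35.8 to 55.2). The other 5fC cytosines of the locus were at 59.2% or above. The plus-strand position beside it, 3093066, was the shared cytosine, with bisulfite-only values of 42.3% in the 5fC and 48.8% in the 5caC library. At a distance of 8 bp, the 5caC cytosine at 3093059, plus strand, had 166 of 189 (87.8%). At 3093035, plus strand, 5caC reads were unconverted in 49 of 108 (45.4%) and 156 of 245 (63.7%), the largest 5caC rise of the locus at 18.3 points. A further locus on the same chromosome, from 3044928 to 3055811, held 4 5fC and 2 5caC deep cytosines, with bisulfite-only values of 60.4 to 81.5% and 69.6 to 79.5%.

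The locus on chromosome X lay near the last listed position of that chromosome, ending 6237 bp before it. The distal end of the mouse X carries the pseudoautosomal region, which pairs with Y in meiosis. Whether the locus falls inside it was not determined. It ran from 166419772 to 166436248, with 13 5fC and 5 5caC deep cytosines, 2 shared cytosines, and 12 5fC and 8 5caC entries of 100 reads or fewer. Bisulfite-only values were lower and more spread than at the loci on chromosomes 2 and 9. They ranged from 6.25 to 72.5% for 5fC (median 45.6%) and from 0 to 27.1% for 5caC (median 8.51%). Median rises were 16.6 and 20.3 points. The 5fC cytosine at 166427127, plus strand, went from 145 of 210 (69.0%) to 228 of 261 (87.4%), with a Bonferroni-adjusted p of 0.00958 over the 5fC list by Fisher's exact test.

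The 5caC cytosines on X were all at the lower end of the scale. At 166432008, plus strand, 108 of 398 bisulfite-only reads (27.1%) and 184 of 521 protected reads (35.3%) were unconverted. At 166436248, plus strand, 0 of 258 bisulfite-only reads were unconverted. That allows a share of up to 1.16% by a limit of 3 reads, or 1.42% by the exact 95% interval. With protection, 7 of 306 reads were unconverted (2.29%, exact 95% interval 0.925 to 4.66). This was the lowest protected value of all deep cytosines. The 5caC cytosine at 166419782, minus strand, went from 2 of 53 (3.77%) to 18 of 74 (24.3%).

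**Figure D4:**
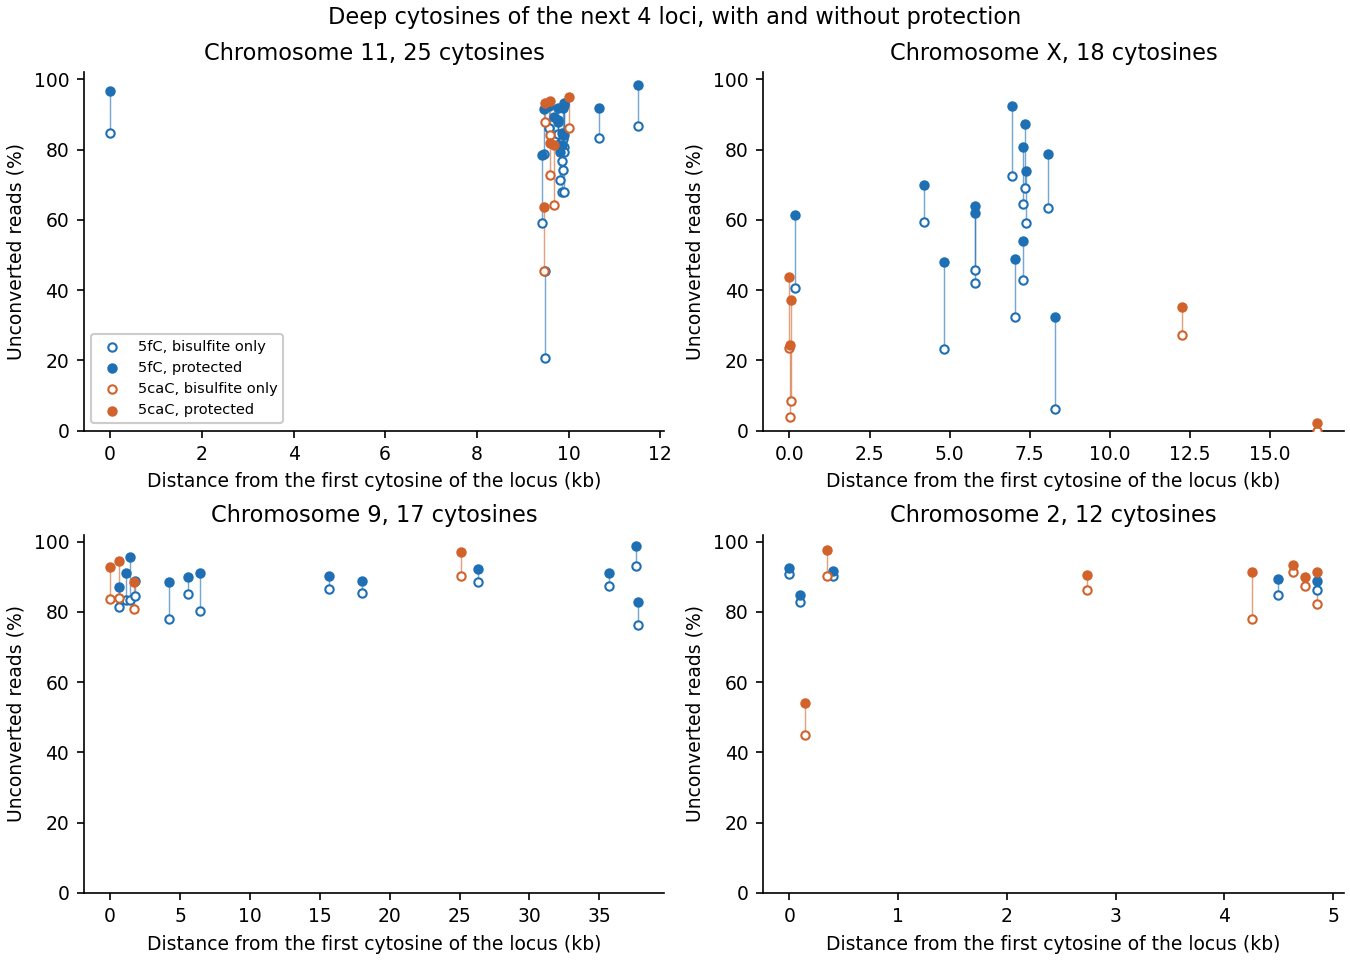
Unconverted reads (y axis, %) at the deep cytosines of the loci on chromosomes 11 (25 cytosines), X (18), 9 (17) and 2 (12), against distance from the first cytosine of each locus (x axis, kb). Open points are bisulfite-only and filled points protected values, with 5fC in blue and 5caC in orange. Chromosomes 9 and 2 lie high for both marks, with 1 low 5caC cytosine on chromosome 2, while X spreads over the scale.

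The balance of reads between the libraries also differed by locus. The choice used the sum of these reads and the listing used both parts, so the ratio is not independent of the choice. Protected reads per bisulfite-only read had a median of 1.38 over deep 5fC cytosines and 1.30 over the other 5fC entries. It was 1.40 for 5fC on chromosome 17 (range 0.723 to 2.00) and 1.34 at the larger locus on chromosome 11 (1.17 to 1.80). On chromosomes 9 and 2 it was lower, at 1.03 (0.80 to 1.30) and 1.02 (0.815 to 1.06). For 5caC it ran from 0.705 to 2.22 within the chromosome 2 locus alone. Ranges of 5fC at the chromosome 2 locus and the larger chromosome 11 locus did not overlap. The smaller chromosome 11 locus, at 0.946 to 1.56, overlapped both. These are ratios at listed cytosines of 1 library pair per mark, so no test was made and their cause was not tested.

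**Figure D5:**
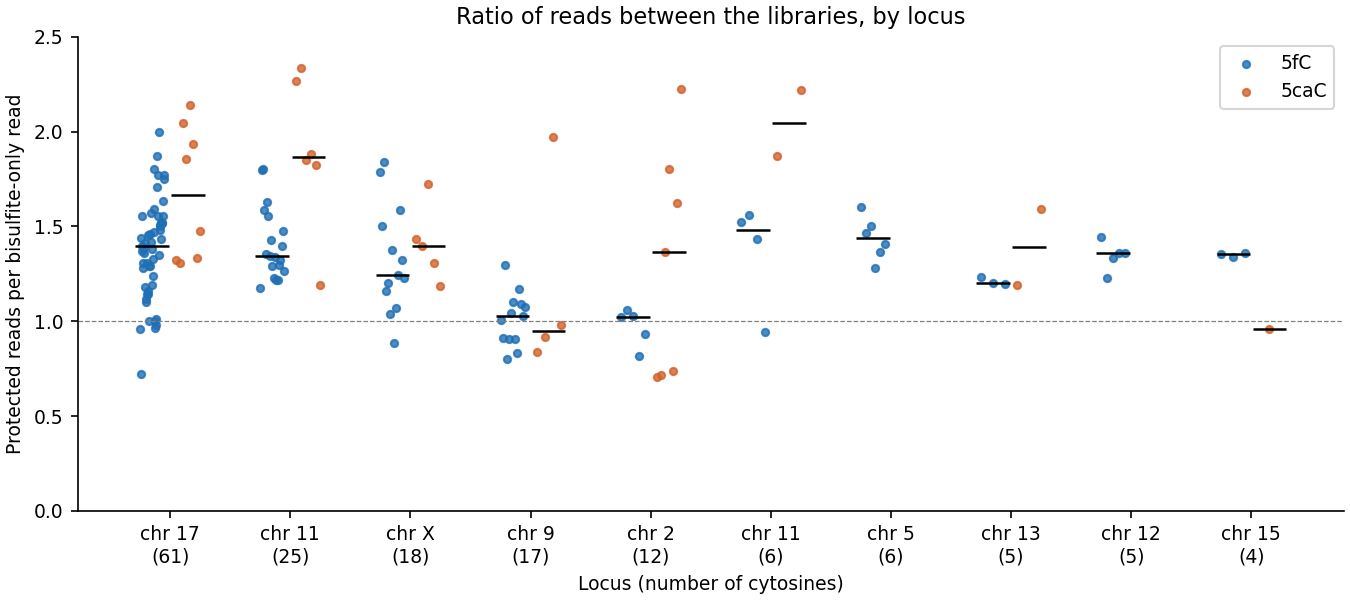
Protected reads per bisulfite-only read (y axis) at the deep cytosines of the 10 largest loci (x axis, chromosome and number of deep cytosines). Points are cytosines, with 5fC in blue and 5caC in orange, bars are medians, and the dashed line marks equal reads. The 5fC medians on chromosomes 9 and 2 are 1.03 and 1.02, and 1.40 on chromosome 17.

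Several smaller loci were short runs on 1 strand. On chromosome 5, 6 5fC cytosines lay within 48 bp of the plus strand, from 147072588 to 147072635, all with an unadjusted Fisher's exact p below 0.01. Such a p was found at 33.8% of the whole 5fC list, and cytosines this close can share reads, so the 6 are not independent. Their bisulfite-only values were 55.0 to 64.5%, their protected values 82.2 to 89.3% and their rises 18.9 to 32.5 points. At the last of them 60 of 93 bisulfite-only reads (64.5%) and 117 of 131 protected reads (89.3%) were unconverted. On chromosome 12, 5 5fC cytosines on the minus strand, from 99927464 to 99927589, had 43.4 to 64.8% before protection and rises of 15.4 to 23.7 points. Another 4 on the minus strand of chromosome 16, within 19 bp from 48431366, included the largest 5fC rise among deep cytosines. At 48431366 the C reads went from 16 of 42 (38.1%, exact 95% interval 23.6 to 54.4) to 63 of 75 (84.0%, 73.7 to 91.4), a rise of 45.9 points with a Bonferroni-adjusted p of 0.00667 over the 5fC list by Fisher's exact test. In contrast, 4 5fC cytosines on the plus strand of chromosome 12, from 107148842 to 107149396, were at 87.5 to 91.1% before protection and rose by 7.04 to 9.88 points. Of the 50 loci with 2 or more deep cytosines, 40 had all of them on 1 strand, and 34 spanned at most 200 bp. Exactly 2 deep cytosines were held by 30 of these loci. Close neighbours shared a strand outside the deep set too. Of the other entries with a listed neighbour within 200 bp, 2329 of 2566 for 5fC and 1456 of 1666 for 5caC had one on the same strand. That is another measure than the counts of loci, which were not made for the other entries. Whether strand, span or size set deep loci apart was therefore not tested.

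A locus on chromosome 15, from 74917095 to 74917369, combined great depth with low bisulfite-only values. Its 3 5fC cytosines, all on the minus strand, had 37.3, 38.3 and 19.4% unconverted reads with bisulfite alone. At 74917198, 288 of 1485 bisulfite-only reads (19.4%) and 461 of 2019 protected reads (22.8%) were unconverted, the lowest protected value of any deep 5fC cytosine. Here the order of the marks was turned, since the single 5caC cytosine, 74917369 on the plus strand, was higher, at 183 of 283 (64.7%) and 199 of 272 (73.2%). The locus also held 2 shared cytosines.

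Outside the 5 largest loci there were 194 deep 5fC and 47 deep 5caC cytosines. Their bisulfite-only medians were 71.1% and 25.9%, and their median rises 15.5 and 21.6 points. The deepest 5fC cytosine of all stood alone on chromosome 6, at 103599282 of the minus strand, with 4356 of 5762 bisulfite-only (75.6%) and 5590 of 7198 protected reads (77.7%) unconverted. On chromosome 9, 35113107 of the plus strand had 2687 of 3442 and 2910 of 3637 unconverted reads for 5fC, a rise of 1.95 points, and 35112827, on the same strand, 298 of 316 (94.3%) and 286 of 292 (97.9%) for 5caC. The 5fC cytosines on sequence without a fixed place in the assembly, either on no chromosome or unpositioned on 1, numbered 6 of 297 (2.02%), against 0.289% of the other 5fC entries, and no deep 5caC cytosine was there. On chromosome 13 the locus of 3 5fC and 2 5caC cytosines ended 16 bp before the last listed position of that chromosome. There 5fC was at 69.5 to 82.7% and 5caC at 69.8 to 72.7% before protection.

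The 5 largest 5caC rises were all in the shallowest depth class of deep cytosines, up to 150 reads. Before protection these 5 cytosines had at most 19.4% unconverted reads. The lowest rise that could be listed was also largest in that class, with a median of 19.2 points for 5caC. At 156386106 of chromosome 2, minus strand, the C reads went from 0 of 30, which allows up to 10.0%, to 34 of 72 (47.2%), a rise of 47.2 points. At 72825160 of chromosome 5, plus strand, they went from 4 of 41 (9.76%) to 34 of 63 (54.0%). At 142852912 of chromosome 4, plus strand, they went from 7 of 36 (19.4%) to 43 of 71 (60.6%), with a Bonferroni-adjusted p of 0.358 over the list by Fisher's exact test. At 28698477 of chromosome 6, plus strand, they went from 2 of 42 (4.76%) to 37 of 83 (44.6%). The cytosines 156386106, 72825160 and 28698477, with 68137958 on chromosome 17 (4 of 48 and 48 of 109) and 98507248 and 98507353 on chromosome 2, were the 6 deep 5caC cytosines with a Bonferroni-adjusted p below 0.05 over the list by Fisher's exact test. The corresponding 2 of 5fC were 166427127 on X and 48431366 on chromosome 16. No rise among the 4 deep 5caC cytosines above 1000 reads, all in the chromosome 2 locus, exceeded 9.07 points. For the 20 5fC cytosines of that depth the highest was 7.42.

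Between the marks, 29 of the 77 deep 5caC cytosines had a deep 5fC cytosine within 200 bp. The nearest 5fC cytosine was higher with bisulfite alone at 21 of them and lower at 8, with a median difference of 11.4 points and a range of -67.2 to 63.9. Loci differed in this. Differences on chromosome 9 were -2.54 and 3.79 points, and on chromosome 13 they were -0.31 and -3.20, whereas those on chromosome 17 were 42.9 to 63.9 and on X 16.9 to 36.7. Each pair compares different cytosines in libraries made with different antisera, and several pairs share a 5fC cytosine, so no test was made.

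Some deep cytosines had the facing cytosine of a possible CpG, 1 bp on and on the opposite strand, on a list. The share of the other entries with such a partner was not counted, so this is not read as a trait of deep cytosines. Both were deep at 4 such pairs, 3 of them with 5fC on both strands. At the pairs on chromosome 11, 3093351 with 3093352 and 3093476 with 3093477, bisulfite-only values were 81.4 and 84.4%, and 80.6 and 79.3%. At 39982751 and 39982752 of chromosome 17 they were 48.1 and 61.8%, with rises of 15.1 and 17.1 points. Unlisted partners are not shown to be unmodified, since their reads are not on the lists. No 2 deep cytosines of 1 mark and strand were 1 bp apart, while 4 neighbouring pairs were 2 bp, 5 were 3 bp and 8 were 4 bp apart.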

How the data were processed

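Per the labels' protocols, DNA was immunoprecipitated, protected or not, and treated with bisulfite before library construction. Bismark, HOMER and mm9 stand in the submitters' processing notes, with no roles. The authors deposited whole read counts (C and T in each of 2 libraries) per listed cytosine, a difference and a p-value. The deposited difference matched that of the C-read shares within 0.0001, and the deposited p-value matched a two-sided Fisher's exact test within 1%, at all 7213 5fC and 4806 5caC entries. No entry had fewer than 10 reads in either library, all differences were positive and all p-values were below 0.05. Because of this, Benjamini-Hochberg adjustment left every entry below 0.05. The sources used here do not say how multiply mapping or duplicate reads were handled.

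Columns were assigned to the 4 knockout libraries by mark, genotype and title. Listed cytosines held 228483 protected and 177260 bisulfite-only reads for 5fC, and 161420 and 127094 for 5caC. Fisher tests and Bonferroni adjustment covered each whole list, with exact Clopper-Pearson 95% intervals. A count of 0 was given the limit of 3 reads. The lowest listable rise keeps the table's margins. The members, loci, tests and alternatives were chosen with earlier results of these data known. Named were, per mark, the 5 deepest cytosines, the 5 of highest rise and the 5 of lowest p, 3 on each side of the threshold with all that tied, and the 8 largest loci with those that hold these cytosines, of which examples are printed. Other cytosines, such as the extremes of a locus, were chosen after their values were seen. Calculations used scipy 1.17.1 with Python 3.11.15, pandas 2.3.3, numpy 2.4.6 and, for figures, matplotlib 3.10.9. Of these calculations, only the Fisher test and the interval of a median were run on simulated data.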

Additional observations from a re-analysis of the deposited data

How the results depend on the processing

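No paired analysis was possible because each group had 1 library. Above 200 reads, 132 5fC and 26 5caC cytosines remained, with median rises of 10.0 and 8.61 points, 18 loci of 2 or more and 78.0% and 96.2% of cytosines in such loci, and the 5caC bisulfite-only median became 79.4%. Above 50 reads there were 1258 and 697, with rises of 26.3 and 31.0 points, bisulfite-only medians of 56.0% and 12.5%, 332 loci, and 51.9% and 56.5% in loci. With at least 100 reads in each library there were 121 and 22, with rises of 9.22 and 7.95 points, 17 loci, 81.0% and 100% in loci, and a 5caC bisulfite-only median of 82.9%. With p below 0.01 there were 116 and 33, with rises of 18.6 and 24.2 points, bisulfite-only medians of 68.0% and 18.0%, 20 loci, and 57.8% of 5fC in loci. Without the chromosome 17 locus, 58.2% of 5fC cytosines lay in loci of 2 or more. The next settings were added after seeing the data. Without the 5 largest loci there were 194 and 47, with rises of 15.5 and 21.6 points and 47.4% and 55.3% in loci. With the deepest cytosine of each 50 bp run, the 5fC rise was 12.6 points and its bisulfite-only median 75.6%, 28 loci remained, and 45.9% and 58.1% lay in loci. Of 78 recomputed values, 33 stayed within the interval of the reported median or share, or within 1.5 times the reported count. The interval of the 5caC bisulfite-only median is wide, 18.9 to 64.7%, so that 45.4% without the chromosome 17 locus and 49.0% with the deepest cytosine of each run lie inside it although they are over 1.5 times the reported 29.7%. These included all values with shared cytosines kept, with joining distances of 1000 and 100000 bp, and, without the chromosome 17 locus, all but that share.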
